A study of Mus musculus with 33 samples.

Results

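The genes described here make, remodel and carry phospholipids in the mouse liver: Mfsd2a, Pemt, Lpcat3, Pcyt1a, Pcyt2, Chka, Chpt1, Etnk1, Etnk2 and Ptdss2. They were chosen by gene symbol, and every probe set that the platform annotation assigns to 1 of these symbols was taken. Of the 10 genes, 9 had such a probe set, with 29 probe sets of the 34945 that carry a single gene, and these 9 were among 18193 genes on the array. For Etnk2, which encodes a second ethanolamine kinase, the annotation used here named no probe set, and it was not analysed. All 9 measured genes passed a filter on dim signals (log2 values of 4 or more on 10 or more of the 33 arrays) and were tested among 9005 genes.

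Livers came from male C57BL/6J mice, 17 weeks old, with no genetic modification named, that had eaten 1 of 3 research diets for 2 weeks. In every diet an added oil gave 7% of the energy. The control group (n = 10) received sunflower oil, of which 81.3% was oleic acid. The fenofibrate group (n = 12) received the same oil with 0.03% fenofibrate by weight, an agonist drug of the nuclear receptor PPARα. The fish oil group (n = 11) received an oil with 23.1% eicosapentaenoic acid (EPA) and 21.1% docosahexaenoic acid (DHA) in place of the sunflower oil. That group therefore differed from the controls both in gaining these fatty acids and in losing the sunflower oil. Mice were fasted on the morning of sacrifice, and the liver RNA of each replicate was hybridised to 1 Affymetrix mouse genome expression array. Values are log2 expression values per probe set, so a difference of 1 is a doubling. They cannot be compared between genes, because each probe set binds its target with its own strength.

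Phosphatidylcholine and phosphatidylethanolamine are the main phospholipids of liver membranes and of the lipoprotein surface. In the Kennedy pathway, choline or ethanolamine is phosphorylated by kinases (Chka, Etnk1, Etnk2), activated to a CDP-alcohol by cytidylyl transferases (Pcyt1a for choline, Pcyt2 for ethanolamine), and joined to diacylglycerol, for phosphatidylcholine by Chpt1. Liver also makes phosphatidylcholine by methylating phosphatidylethanolamine, the reaction of Pemt. Ptdss2 exchanges the head group for serine, Lpcat3 re-esterifies lysophospholipids with polyunsaturated acyl chains, and Mfsd2a carries lysophosphatidylcholine across membranes and is best known for the uptake of DHA into the brain.

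Promoter windows were read for the members from RefSeq (mouse assembly GRCm38.p6); 9 of the 10 genes matched, with 12 windows between them, and Pcyt2 was not in the table. The windows below are the 250 bases before the annotated start of 3 members that the results turn on, the first lower on fish oil, the second higher and the third lower on both diets: Mfsd2a (chr4:122961189-122961438), Chpt1 (chr10:88503971-88504220) and the upstream start of Pemt (chr11:60040189-60040438), all on the minus strand and printed 5′ to 3′ in the direction of the gene. Capitals mark every match, on either strand, to 6 motifs: the nuclear receptor half-site AGGTCA, the E-box CACGTG, the sterol regulatory element TCACNCCAC, the CCAAT box CCAAT, the GC box GGGCGG and the TATA box TATAAA.
Mfsd2a: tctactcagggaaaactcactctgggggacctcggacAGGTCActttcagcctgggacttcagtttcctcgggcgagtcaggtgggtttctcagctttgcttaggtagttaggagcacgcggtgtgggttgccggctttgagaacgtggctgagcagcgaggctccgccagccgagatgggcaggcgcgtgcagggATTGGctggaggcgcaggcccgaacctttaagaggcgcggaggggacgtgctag
Chpt1: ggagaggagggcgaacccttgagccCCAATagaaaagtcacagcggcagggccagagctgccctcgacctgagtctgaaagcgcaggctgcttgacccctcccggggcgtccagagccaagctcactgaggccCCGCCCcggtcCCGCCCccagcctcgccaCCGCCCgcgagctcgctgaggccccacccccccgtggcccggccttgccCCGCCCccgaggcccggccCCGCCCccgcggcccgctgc
Pemt: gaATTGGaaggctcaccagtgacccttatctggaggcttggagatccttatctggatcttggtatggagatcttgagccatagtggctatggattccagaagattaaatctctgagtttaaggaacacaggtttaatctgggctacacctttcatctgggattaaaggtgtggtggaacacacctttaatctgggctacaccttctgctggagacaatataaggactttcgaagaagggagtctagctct
The Mfsd2a window held 1 AGGTCA, 213 to 208 bases before the start, and 1 CCAAT box, 54 to 50 bases before it. No other member window held AGGTCA, which occurred in 14% of all 32851 windows of this length. The Chpt1 window held 5 GC boxes, the nearest 20 to 15 bases before the start, and 1 CCAAT box. The Pemt window shown held 1 CCAAT box and none of the other motifs. GC boxes were found in 7 of the 12 member windows and in 32.7% of all windows, and CCAAT boxes in 5 of the 12 and in 33.8% of all. The sterol regulatory element was found in 2 overlapping windows of Pcyt1a and in 1.05% of all. CACGTG (6.02% of all windows) and TATAAA (12.4%) matched no member window. These are letter matches in short windows, and no binding was measured.

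The arrays were even in brightness, with medians between 2.9 and 2.97. The summed level of the hepatocyte markers was high on every array, and its brightest markers weigh most in it. The log2 of this sum was 17.11 to 17.22 in controls, 16.99 to 17.12 on fenofibrate and 17.06 to 17.16 on fish oil. The marker Ass1 was dim, at 4.15 to 6.26 in controls, 4.91 to 6.5 on fenofibrate and 4.77 to 7.2 on fish oil. Control replicates 1, 2 and 9, fish oil replicate 9 and fenofibrate replicate 11 lay farthest from their group, with median absolute deviations of 0.165 to 0.2 against 0.085 to 0.14 in the other 28. Counts below are also given without the 3 controls. In those counts fish oil replicate 9 and fenofibrate replicate 11 stayed in, and each was left out only in the fits without 1 array. The labels number the arrays. Each odd number was paired with the next even number, which gave 16 pairs, each within 1 diet. These pairs tended to deviate together, with a median Pearson r across genes of 0.14, against -0.13 over 150 other pairs of 1 diet. The 150 include some neighbouring fenofibrate arrays. Subtracting the diet mean itself lowers r between arrays of 1 diet, so the negative value is partly built in. Counts are also given with the 16 pairs as a random block, the neighbour block. Mice were housed 2 to a cage, and cage mates cannot be told from the labels.

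Fenofibrate raised 4 of the 9 measured genes and lowered 1. Chpt1, Ptdss2, Lpcat3 and Pcyt1a rose and Pemt fell at an adjusted p under 0.05 (limma, adjusted over all genes tested), while Mfsd2a, Pcyt2, Chka and Etnk1 did not pass. The background was high: 40.8% of all 9005 genes were called in this comparison, higher in 22% and lower in 18.9%. The median difference of the 9 members was 0.24 against 0 for all genes, and their median absolute difference was 0.39 against 0.16. The members were chosen with earlier results of these data known. Here and below, an excess over all genes can come from that choice and is only a description. In 2 members, Chpt1 and Ptdss2, the fenofibrate and control arrays did not overlap, as in 5.41% of all genes. Without control replicates 1, 2 and 9 the counts were 5 higher and 2 lower against 41.9% of all genes called, and with the neighbour block 4 higher and 1 lower against 34.6%.

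Fish oil lowered 3 of the 9 genes and raised 1. Mfsd2a, Pcyt2 and Pemt fell and Chpt1 rose, against a background of 14.5% of all genes called (7.53% higher and 7.00% lower). The median difference of the members was -0.04 against 0.01 for all genes, and the median absolute difference 0.16 against 0.1. In 2 members, Pcyt2 and Chpt1, the fish oil and control arrays did not overlap, as in 1.05% of all genes. The counts were the same without the 3 controls (15.9% of all genes called) and with the neighbour block (9.38%). Both comparisons use the same 10 control arrays, so their results are not independent.

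Set directly against each other, the diets differed in 7 of the 9 genes, all of them higher on fenofibrate than on fish oil. These were Mfsd2a, Lpcat3, Pcyt1a, Pcyt2, Chpt1, Etnk1 and Ptdss2, and Pemt and Chka did not pass. Of all genes 38.9% were called, 19.8% higher on fenofibrate and 19.1% lower. The median difference was 0.28 for the members and -0.01 for all genes. The groups did not overlap for Mfsd2a and Pcyt2, as in 6.34% of all genes. The counts were the same without the 3 controls and with the neighbour block, where 42% and 32.9% of all genes were called.

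**Figure D1:**
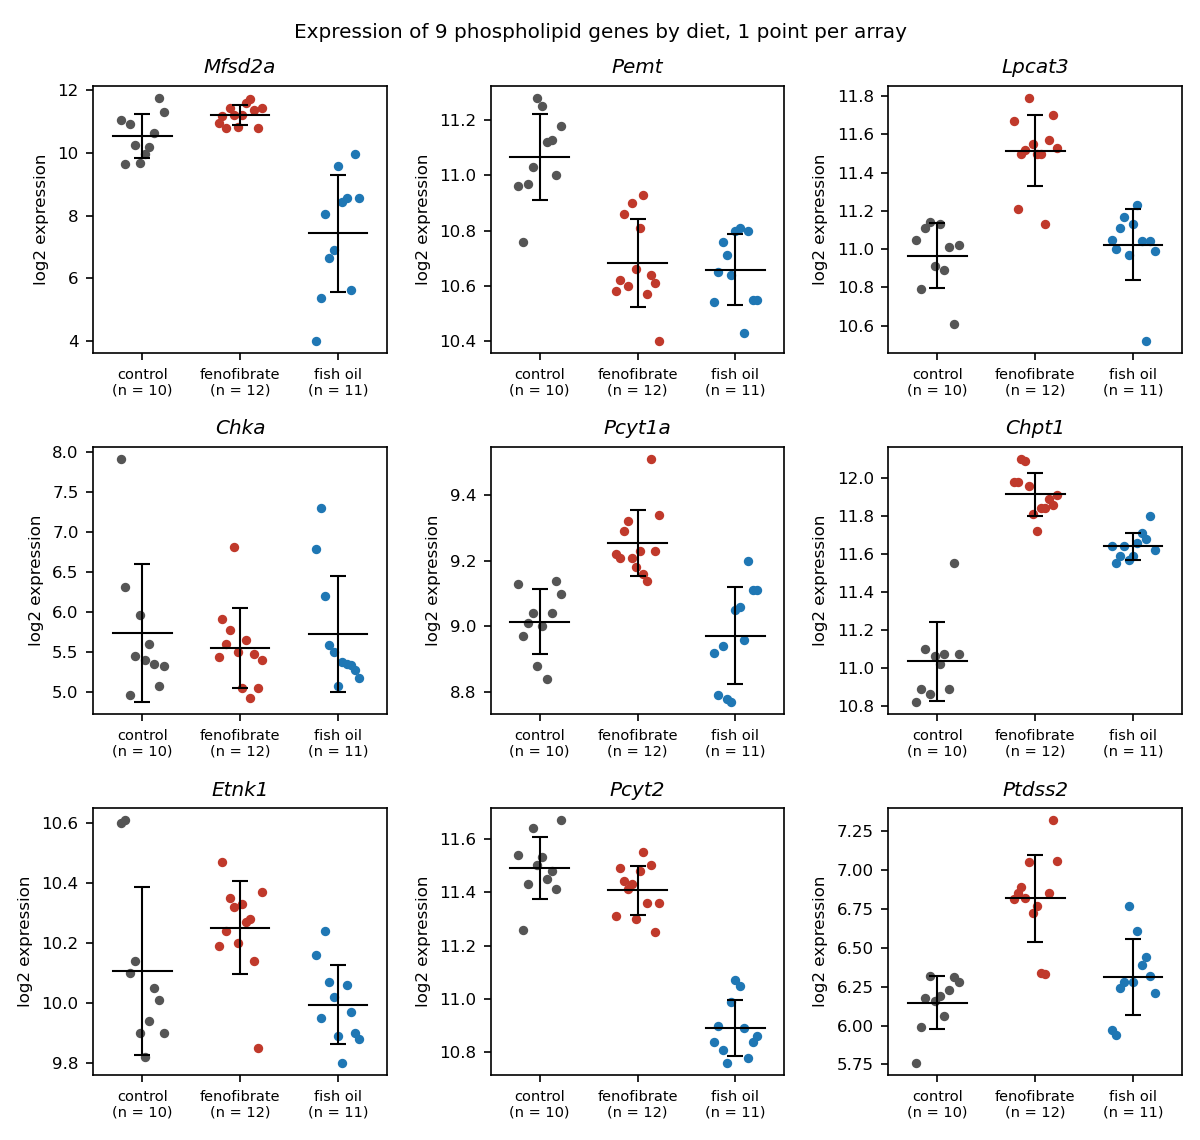
Log2 expression value (vertical axis, own range in each panel) of the 9 measured genes by diet, with 1 point per array and a bar at the group mean. Fish oil points of Mfsd2a spread from 4.01 to 9.97, those of Pcyt2 lie below all control points, and Chpt1 points of both treated groups lie above the highest control, at 11.55.

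**Figure D2:**
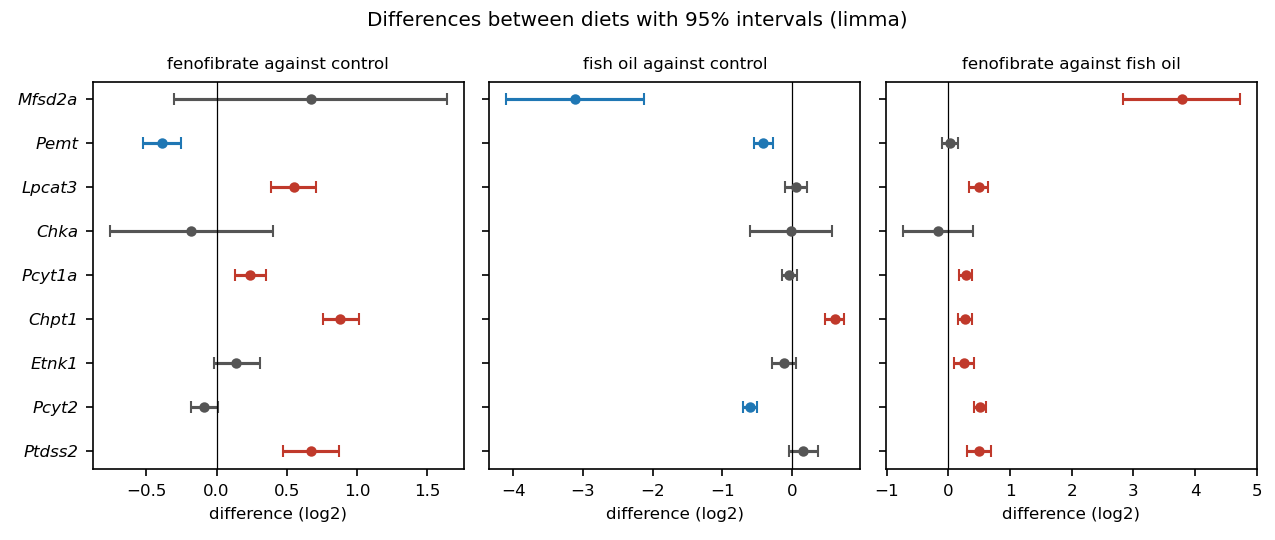
Difference in mean log2 value (horizontal axis, with a different range in each panel) of each gene in the 3 comparisons, with 95% confidence intervals from the fit; red marks called higher, blue called lower and grey not called. Mfsd2a sits at -3.11 for fish oil against control and at 3.78 for fenofibrate against fish oil, far outside the other 8 genes.

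Mfsd2a, the lysolipid transporter, had the lowest and most scattered values on fish oil. Control arrays ran from 9.66 to 11.75 with a median of 10.44. Fenofibrate arrays ran from 10.8 to 11.73 with a median of 11.21. Fish oil arrays, in replicate order 1 to 11, read 4.01, 5.37, 8.06, 6.65, 6.91, 9.59, 8.45, 8.58, 5.64, 9.97 and 8.55. Thus 10 of the 11 fish oil arrays lay below every control, 1 lay within the control range, and none reached the fenofibrate range. The mean fell from 10.54 ± 0.71 (SD, n = 10) in controls to 7.44 ± 1.88 (SD, n = 11) on fish oil, a difference of -3.11 ± 0.49 (SE; limma adjusted p = 2.14e-05), or 8.61-fold lower. With only control and fish oil arrays fitted, the same difference had an SE of 0.59 and a limma adjusted p of 0.00109. Arrays of replicates 1 and 2, with the lowest values, carry the first array numbers in the labels. Without them the difference was -2.5 (limma adjusted p = 2.62e-05), and with array number as a linear term over all arrays it was -2.95 ± 0.44 (SE; limma adjusted p = 9.94e-06). A log2 value of 4 is at the level of the dim-signal filter, so the size of the fold for the lowest arrays depends on the background correction. In bulk tissue, fewer cells of a type and less RNA per cell cannot be told apart.

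On fenofibrate the mean of Mfsd2a was 11.22 ± 0.32 (SD, n = 12). It differed from the controls by 0.67 ± 0.48 (95% interval -0.3 to 1.64; limma adjusted p = 0.272), which did not pass. The common spread of the 3 groups is widened by the fish oil arrays: with only control and fenofibrate arrays fitted, the same difference had an SE of 0.21 and a limma adjusted p of 0.0147. The scatter was thus unequal between diets, the SD on fish oil being 1.88 against 0.32 on fenofibrate. Fenofibrate exceeded fish oil by 3.78 ± 0.46 (SE; limma adjusted p = 5.82e-08), 13.7-fold, with no overlap. With only these 2 groups fitted, the SE was 0.51 and the limma adjusted p 2.13e-06.

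In the choline branch, Chpt1 rose on both diets, Pcyt1a rose on fenofibrate, and the kinase gene Chka passed in neither comparison. Chpt1, the cholinephosphotransferase that completes phosphatidylcholine, ran from 10.82 to 11.55 in controls (median 11.04). It ran from 11.72 to 12.1 on fenofibrate (median 11.9) and from 11.55 to 11.8 on fish oil (median 11.64). Only control replicate 9, at 11.55, came near the treated arrays, and the next highest control was at 11.1. Fenofibrate exceeded control by 0.88 ± 0.06 (SE; limma adjusted p = 1.61e-13), 1.84-fold. Fish oil exceeded control by 0.61 ± 0.06 (SE; limma adjusted p = 1.08e-08), 1.53-fold. Fenofibrate also exceeded fish oil by 0.27 ± 0.06 (SE; limma adjusted p = 0.000411), although with its probe set of largest variance in place of the brightest this was 0.07 (limma adjusted p = 0.604).

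Pcyt1a encodes the CTP:phosphocholine cytidylyl transferase, the rate-limiting enzyme of the branch. Its control arrays ran from 8.84 to 9.14 (median 9.02), its fenofibrate arrays from 9.14 to 9.51 (median 9.23) and its fish oil arrays from 8.77 to 9.2 (median 8.96). Of the 12 fenofibrate arrays 11 lay above every control, whereas fish oil arrays covered the control range. The rise on fenofibrate was 0.24 ± 0.05 (SE; limma adjusted p = 0.000464), 1.18-fold. The fish oil difference was -0.04 ± 0.05 (95% interval -0.15 to 0.07; limma adjusted p = 0.663). The diets differed by 0.28 ± 0.05 (SE; limma adjusted p = 4.65e-05).

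Chka, choline kinase alpha, was dim and uneven. Controls ran from 4.97 to 7.91 (median 5.44), fenofibrate arrays from 4.93 to 6.82 (median 5.49) and fish oil arrays from 5.08 to 7.3 (median 5.38). The medians lay close together, and in each diet a few arrays stood high. Control replicate 1 read 7.91, fish oil replicate 2 read 7.3, fenofibrate replicate 5 read 6.82 and fish oil replicate 1 read 6.79. The arrays numbered 1 to 5 in the labels were all among the 6 highest of the 33, across control and fish oil. The difference from control was -0.18 ± 0.29 on fenofibrate (95% interval -0.76 to 0.4; limma adjusted p = 0.642). On fish oil it was -0.01 ± 0.29 (95% interval -0.6 to 0.58; limma adjusted p = 0.986). With array number as a linear term these differences were -0.36 (limma adjusted p = 0.178) and -0.15 (limma adjusted p = 0.7). The intervals are wide, so these arrays bound a change in Chka only loosely.

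In the ethanolamine branch, Pcyt2 fell on fish oil and the kinase gene Etnk1 was higher on fenofibrate than on fish oil. Pcyt2, the CTP:phosphoethanolamine cytidylyl transferase, had tight groups: 11.26 to 11.67 in controls (median 11.49), 11.25 to 11.55 on fenofibrate (median 11.42) and 10.76 to 11.07 on fish oil (median 10.86). Every fish oil array lay below every array of the other diets. The fish oil mean fell by 0.6 ± 0.05 (SE; limma adjusted p = 5.37e-11), 1.52-fold lower than control. Fenofibrate exceeded fish oil by 0.52 ± 0.05 (SE; limma adjusted p = 6.94e-11). Fenofibrate differed from control by -0.09 ± 0.05 (95% interval -0.18 to 0.01; limma adjusted p = 0.15). That difference passed when control replicates 1, 2 and 9 were left out (-0.12, limma adjusted p = 0.0435).

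Etnk1, an ethanolamine kinase, ran from 9.82 to 10.61 in controls (median 10.03), from 9.85 to 10.47 on fenofibrate (median 10.27) and from 9.8 to 10.24 on fish oil (median 9.97). The top of the control range was set by replicates 1 and 2, at 10.6 and 10.61, while the other 8 controls lay between 9.82 and 10.14. Fenofibrate differed from control by 0.14 ± 0.08 (95% interval -0.02 to 0.31; limma adjusted p = 0.171). The difference became 0.2 and passed without control replicate 1 (limma adjusted p = 0.0362) or control replicate 2 (limma adjusted p = 0.0367). It was 0.27 without control replicates 1, 2 and 9 together (limma adjusted p = 0.00162). Fish oil differed from control by -0.11 ± 0.08 (95% interval -0.29 to 0.06; limma adjusted p = 0.408). Fenofibrate exceeded fish oil by 0.26 ± 0.08 (SE; limma adjusted p = 0.011), which was lost when the probe sets of the gene were averaged (0.25, limma adjusted p = 0.0652).

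Pemt, the methyltransferase that turns phosphatidylethanolamine into phosphatidylcholine, was lower on both diets than on control. Controls ran from 10.76 to 11.28 (median 11.08), fenofibrate arrays from 10.4 to 10.93 (median 10.63) and fish oil arrays from 10.43 to 10.81 (median 10.65). Below every control lay 8 of the 12 fenofibrate arrays and 7 of the 11 fish oil arrays. On fenofibrate the mean fell by 0.39 ± 0.06 (SE; limma adjusted p = 1.14e-05), 1.31-fold. On fish oil it fell by 0.41 ± 0.07 (SE; limma adjusted p = 2.81e-05), 1.33-fold. Against each other the diets differed by 0.03 ± 0.06, with a 95% interval of -0.1 to 0.15 (limma adjusted p = 0.771).

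Lpcat3, the acyltransferase of lysophosphatidylcholine, and Ptdss2, a phosphatidylserine synthase, rose on fenofibrate. Lpcat3 ran from 10.61 to 11.14 in controls (median 11.01), from 11.13 to 11.79 on fenofibrate (median 11.52) and from 10.52 to 11.23 on fish oil (median 11.04). All but 1 of the 12 fenofibrate arrays lay above every control, and the fish oil arrays spanned the control range. Fenofibrate exceeded control by 0.55 ± 0.08 (SE; limma adjusted p = 6.37e-07), 1.46-fold, and fish oil by 0.49 ± 0.08 (SE; limma adjusted p = 2.96e-06). Fish oil differed from control by 0.06 ± 0.08 (95% interval -0.1 to 0.22; limma adjusted p = 0.688).

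Ptdss2 ran from 5.76 to 6.32 in controls (median 6.18), from 6.33 to 7.32 on fenofibrate (median 6.83) and from 5.94 to 6.77 on fish oil (median 6.28). The lowest fenofibrate array lay just above the highest control, and fish oil arrays overlapped both groups. Fenofibrate exceeded control by 0.67 ± 0.1 (SE; limma adjusted p = 1.77e-06), 1.59-fold, and fish oil by 0.5 ± 0.1 (SE; limma adjusted p = 9.12e-05). Fish oil differed from control by 0.16 ± 0.1 (95% interval -0.04 to 0.37; limma adjusted p = 0.308).

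The 9 genes had 29 probe sets, of which 23 passed the filter, and several genes could be read more than once. Probe sets of 1 gene read the same RNA, so the counts that follow are not independent. On fenofibrate 16 of the 23 were called higher and 1 lower, against 36.6% of all probe sets called. On fish oil 4 were higher and 3 lower against 11.6%, and between the diets 16 were called, all higher on fenofibrate, against 34.5%. All 4 probe sets of Chpt1 were higher on both diets, by 0.88 to 1.01 on fenofibrate and 0.6 to 0.81 on fish oil. The 4 of Pcyt1a were higher on fenofibrate by 0.24 to 0.53, and their fish oil differences of -0.08 to 0.16 were not called. For Ptdss2, 5 of 9 probe sets passed the filter and were higher on fenofibrate by 0.45 to 0.82; the other 4 stayed below 4 on every array. Its brightest probe set is of a class that can bind related transcripts. For Etnk1, 2 of 4 tested probe sets were called higher on fenofibrate than on control, by 0.47 and 0.35 (limma adjusted p = 0.043 and 0.0096). The second tested probe set of Chka gave 0.22 on fenofibrate and -0.19 on fish oil, neither called. Mfsd2a, Pemt, Lpcat3 and Pcyt2 rest on 1 probe set each.

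**Figure D3:**
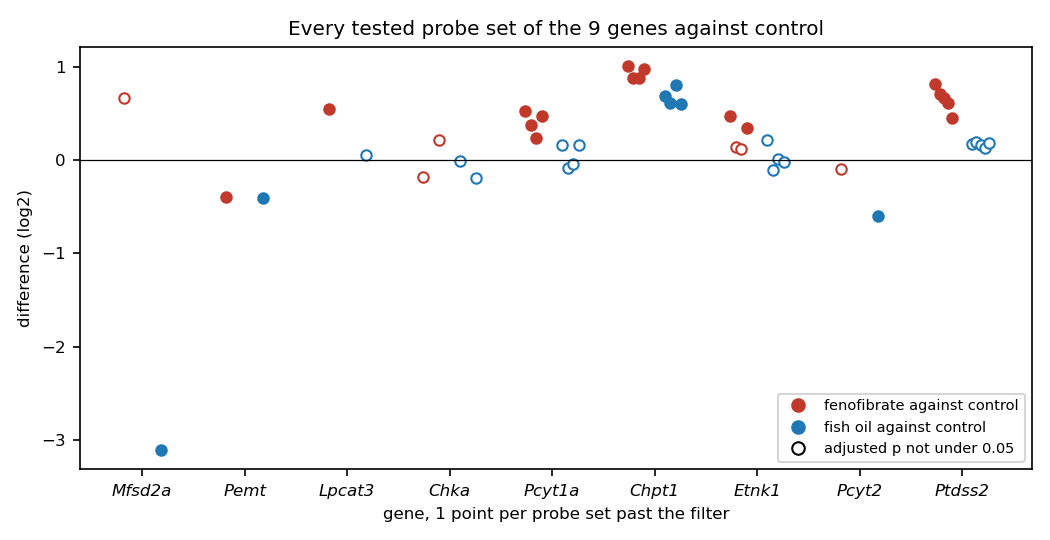
Difference in mean log2 value from control (vertical axis, log2) of the 23 member probe sets past the filter, on fenofibrate (red) and on fish oil (blue), grouped by gene, with open points where the adjusted p was not under 0.05. The 4 probe sets of Chpt1 lie above 0 on both diets, and the filled points of Pcyt1a and Ptdss2 are those on fenofibrate.

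The other genes of phospholipid metabolism were counted in 8 lists with 69 genes, of which 56 were tested. On fenofibrate 27 of the 56 rose (48.2%) and 8 fell (14.3%), where 22% of all genes tested were called higher and 18.9% lower, so the share that fell lay below that of all genes. Their median difference was 0.24, against 0 for all genes. On fish oil 10 rose (17.9%) and 5 fell (8.93%), where 7.53% of all genes were called higher and 7.00% lower, with a median of 0.04 against 0.01. The fish oil counts depended on the arrays and the model: 13 rose and 5 fell without control replicates 1, 2 and 9 (15.9% of all genes called), and 8 rose and 2 fell with the neighbour block (9.38% of all genes called). For fenofibrate the same fits gave 27 and 7 (41.9% of all genes called), and 26 and 7 (34.6%). Fenofibrate against fish oil gave 22 higher (39.3%) and 7 lower (12.5%), where 19.8% of all genes were called higher and 19.1% lower. The lists too were chosen with earlier results of these data known, so these shares are a description. The counts of single lists that follow are to be read against the shares of all genes.

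Chkb, choline kinase beta, rose on both diets. Its control arrays ran from 8.94 to 10.03 (median 9.42), its fenofibrate arrays from 10.46 to 10.94 (median 10.63) and its fish oil arrays from 9.7 to 10.14 (median 9.92). All fenofibrate arrays lay above all arrays of the other diets, while fish oil arrays overlapped the upper controls. The difference from control was 1.17 ± 0.09 on fenofibrate (SE; limma adjusted p = 4.44e-12) and 0.45 ± 0.09 on fish oil (SE; limma adjusted p = 0.000896). Fenofibrate exceeded fish oil by 0.71 ± 0.09 (SE). Of the other 4 tested genes of the Kennedy pathway and base exchange, fenofibrate raised the phosphatidylserine decarboxylase Pisd by 0.46 ± 0.1, the choline/ethanolamine phosphotransferase Cept1 by 0.42 ± 0.09 and the ethanolamine phosphotransferase Selenoi by 0.39 ± 0.12 (SE).

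Among enzymes that, like Lpcat3, add an acyl chain to lysophospholipids or related precursors, 4 of 6 tested rose on fenofibrate. They were Lclat1 (0.53 ± 0.05, SE), Lpgat1 (0.43 ± 0.12), Agpat5 (0.27 ± 0.08) and Mboat7 (0.19 ± 0.05). On fish oil 1 passed, Lpcat1, which fell by 0.3 ± 0.08 (SE; limma adjusted p = 0.00959) and was dim, with a control mean of 4.66. Between the diets 5 of the 6 were higher on fenofibrate, of which the call for Agpat5 was lost without fish oil replicate 10 or 11 (highest limma adjusted p = 0.0525).

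For the supply and breakdown of choline and ethanolamine, 4 of 6 tested genes rose on fenofibrate. These were the choline transporter genes Flvcr1 (0.69 ± 0.17, SE) and Slc44a1 (0.33 ± 0.09), the related Slc44a3 (0.67 ± 0.16) and the choline dehydrogenase gene Chdh (0.53 ± 0.07). Slc44a3 was dim, at 3.84 to 5.49 in controls, 4.77 to 5.79 on fenofibrate and 3.51 to 4.56 on fish oil. Chdh also rose on fish oil, by 0.41 ± 0.07 (SE). Etnppl, which breaks down phosphoethanolamine, the substrate of Pcyt2, rose on fish oil. It ran from 8.17 to 10.48 in controls (median 9.78), from 8.69 to 10.21 on fenofibrate (median 9.71) and from 9.94 to 11.38 on fish oil (median 10.61). The fish oil difference was 0.98 ± 0.23 (SE; limma adjusted p = 0.00323), with overlap in the upper control range, and the difference of fenofibrate from fish oil was -1.03 ± 0.22 (SE). Slc44a3 differed on fish oil by -0.51 ± 0.16 (limma adjusted p = 0.029), a call that was lost with the neighbour block (limma adjusted p = 0.0834) and when control replicate 5, 8 or 10, or replicate 8 of fish oil, was left out.

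Of 17 tested genes for breakdown, 6 rose and 4 fell on fenofibrate (22% and 18.9% among all genes), and 4 rose and 2 fell on fish oil (7.53% and 7.00% among all genes). Pla2g6, a calcium-independent phospholipase, ran from 8.82 to 9.46 in controls (median 9.2), from 9.97 to 10.75 on fenofibrate (median 10.4) and from 9.35 to 10.07 on fish oil (median 9.75). It rose by 1.2 ± 0.1 on fenofibrate (SE; limma adjusted p = 6e-12) without overlap and by 0.53 ± 0.1 on fish oil (SE; limma adjusted p = 0.000224) with overlap. Pnpla7, a lysophosphatidylcholine hydrolase, fell on fish oil from a control range of 11.97 to 12.36 (median 12.06) to a range of 10.75 to 11.81 (median 11.54). That difference was -0.58 ± 0.09 (SE; limma adjusted p = 1.54e-05) without overlap, and fenofibrate arrays lay between 11.84 and 12.37. Pla2g12a, a secreted phospholipase, rose on fish oil by 1 ± 0.19 (SE), and Abhd3, which cleaves phosphatidylcholine, rose by 0.53 ± 0.08 on fenofibrate and 0.36 ± 0.08 on fish oil (SE). On fenofibrate Abhd4 rose by 0.53 ± 0.05 and Lcat, the plasma enzyme that takes an acyl chain from phosphatidylcholine to cholesterol, fell by 0.24 ± 0.04 (SE).

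In the CDP-diacylglycerol branch, which leads to phosphatidylglycerol and cardiolipin, 4 of 6 tested genes rose on fenofibrate. Pgs1 rose by 1.06 ± 0.12 (SE) from a dim control range of 3.65 to 4.83 to 4.91 to 5.76, while its fish oil arrays ran from 3.67 to 4.5. Crls1, the cardiolipin synthase gene, rose by 0.42 ± 0.11, Ptpmt1 by 0.32 ± 0.06 and Cds2 by 0.26 ± 0.07 (SE). Each of these 4 was also higher on fenofibrate than on fish oil, by 1.16, 0.37, 0.42 and 0.24 in the same order.

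Of 8 tested transfer and export genes 2 rose and 2 fell on fenofibrate, near the shares of all genes (22% higher and 18.9% lower). Pctp, the phosphatidylcholine transfer protein, ran from 9.9 to 11.1 in controls (median 10.62), from 11.27 to 11.75 on fenofibrate (median 11.53) and from 10.82 to 11.25 on fish oil (median 11). It rose by 0.9 ± 0.09 on fenofibrate (SE; limma adjusted p = 4.25e-10) without overlap and by 0.42 ± 0.09 on fish oil (SE; limma adjusted p = 0.00105) with overlap. Abcb4, which moves phosphatidylcholine into bile, rose by 0.42 ± 0.08 on fenofibrate (SE). On fish oil it was higher by 0.27 ± 0.08 (limma adjusted p = 0.021), which was lost with the neighbour block (limma adjusted p = 0.0736). The 2 transfer and export genes that fell on fenofibrate were Atp8b1, by 0.31 ± 0.07, and Stard10, by 0.09 ± 0.04 (SE). The call for Stard10 was lost in 22 of 33 fits that each left out 1 array. Among phosphatidate phosphatases 1 of 5 rose on fenofibrate, Plpp2 (0.24 ± 0.08), and Plpp1 (-0.41 ± 0.08) and Plpp3 (-0.2 ± 0.07) fell (SE). Plpp1 was also lower on fish oil (-0.26, limma adjusted p = 0.0323), a call lost without the 3 controls (limma adjusted p = 0.062). That call was also lost with the neighbour block (limma adjusted p = 0.0642) and in 6 of 33 fits without 1 array. Of the sphingomyelin synthase genes Sgms1 and Sgms2, Sgms1 rose on fenofibrate (0.46 ± 0.12, SE). The related family member Samd8 was higher by 0.22 ± 0.08 on fenofibrate and 0.35 ± 0.09 on fish oil (SE). The fenofibrate call of Samd8 was lost without the 3 controls (limma adjusted p = 0.159) and with the neighbour block (limma adjusted p = 0.0636). It was also lost in 9 of 33 fits without 1 array.

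**Figure D4:**
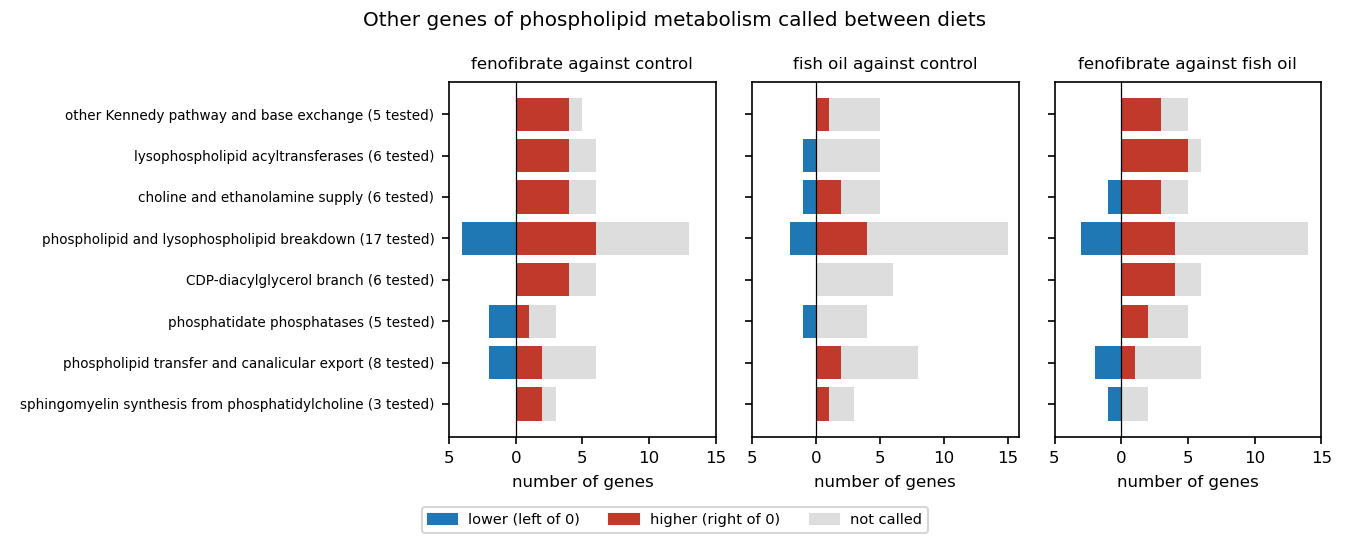
Number of tested genes (horizontal axis) in each of 8 lists that were called higher (red, right of 0), called lower (blue, left of 0) or not called (grey) in the 3 comparisons. On fenofibrate 27 of 56 genes were higher and 8 lower, and on fish oil 10 were higher and 5 lower.

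Genes that followed Mfsd2a from array to array were looked for after each diet mean was subtracted, which removed the differences between diet means. The spread still differed by diet, the SD of Mfsd2a being 1.88 on fish oil, 0.71 in controls and 0.32 on fenofibrate. Fish oil arrays therefore weigh most in the pooled values. Over the 33 arrays the highest Pearson correlations were with Lipg (0.85), Lpin1 (0.75), Noct (0.7), Gemin2 (0.69) and 1810055G02Rik (0.69). Lipg encodes endothelial lipase, a phospholipase of lipoproteins, and Lpin1 a phosphatidate phosphatase. Without the 2 arrays farthest from the centre, fish oil replicates 1 and 10, these values became 0.8, 0.62, 0.54, 0.66 and 0.45 in the same order, so that of 1810055G02Rik rested most on those arrays. Without control replicates 1, 2 and 9 the first 2 were 0.89 and 0.83. Within diets, Mfsd2a and Lipg correlated at 0.94 over the 11 fish oil arrays, 0.66 over the 10 controls and 0.57 over the 12 fenofibrate arrays. For Lpin1 the values were 0.94, 0.54 and 0.34. In the same order they were 0.79, 0.77 and 0.36 for Noct and 0.79, 0.62 and 0.27 for Gemin2. For 1810055G02Rik they were 0.72, 0.81 and 0.4. These arrays share the RNA and the hybridisation of each mouse, and the genes were picked for their correlation, so the values are a description.

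Lipg itself was lower on fish oil. Controls ran from 6.61 to 8.82 (median 8.48), fenofibrate arrays from 7.39 to 9.15 (median 8.49) and fish oil arrays from 4.47 to 8.71 (median 6.75). The fish oil arrays reached low values, as for Mfsd2a, but overlapped the controls. The difference was -1.41 ± 0.34 (SE; limma adjusted p = 0.00386) on fish oil and 0.17 ± 0.33 (SE; limma adjusted p = 0.71) on fenofibrate. Lpin1 differed by -0.73 on fish oil (limma adjusted p = 0.267), which did not pass. Noct (-0.7, limma adjusted p = 0.14) and Gemin2 (0.11, limma adjusted p = 0.454) did not pass either. 1810055G02Rik was lower on fish oil by 1.25 ± 0.23 (SE; limma adjusted p = 0.000173), with 10 of the fish oil arrays below every control.

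**Figure D5:**
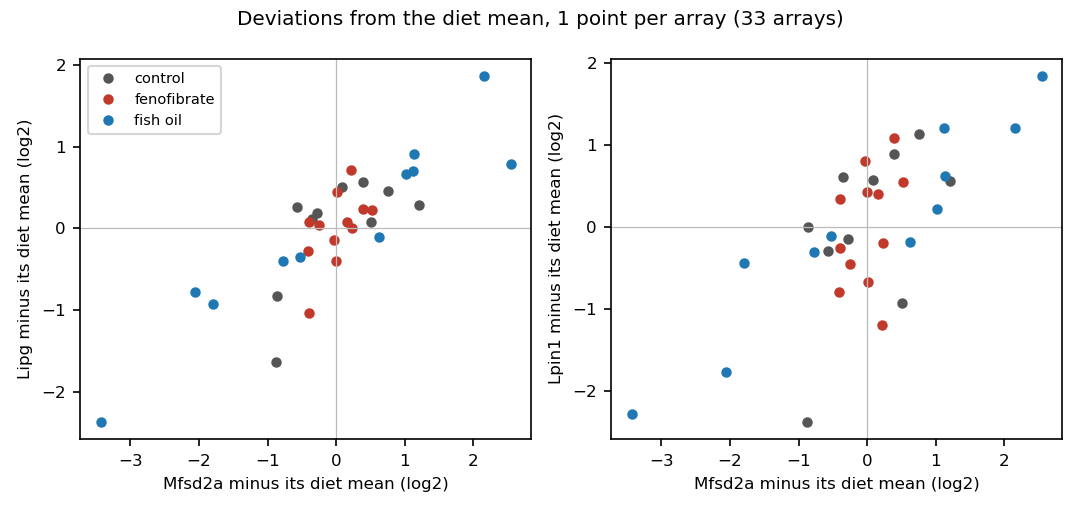
Deviation of Lipg (left) and Lpin1 (right) from the diet mean, on the log2 scale (vertical axes), against that of Mfsd2a (horizontal axes), with 1 point per array. Fish oil arrays span the widest range of Mfsd2a, and their points rise together with both genes (r = 0.94 in each panel).

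The same measure was taken for Chka, Pcyt2, Pemt and Lpcat3. The 5 genes nearest to Chka were Insc (0.87), Plrg1 (0.85), Tars (0.83), Asap2 (0.82) and Map7 (0.82), with 0.75 to 0.83 when control replicate 1 and fish oil replicate 2 were left out. Those nearest to Pcyt2 were Apoh and Cyp27a1 (0.69 each), Pde2a (0.65), Adh1 (0.63) and Dmac2 (0.62). Without control replicates 2 and 10 these were 0.62, 0.61, 0.68, 0.5 and 0.49 in the same order. Pemt lay nearest to Uqcrq (0.79), Haao (0.75), Gm12338 (0.73), Mrpl48 (0.72) and Cox6c (0.72). These were 0.73 to 0.83 without control replicate 2 and fenofibrate replicate 8. Lpcat3 lay nearest to Abhd14a (0.76), Exosc8 (0.74), Oit3 (0.71), Pex6 (0.71) and Bivm (0.68). Without replicate 9 of fish oil and of fenofibrate these were 0.66, 0.6, 0.64, 0.54 and 0.67 in the same order. Between members, Chka and Etnk1 correlated at 0.58, which became 0.33 without control replicates 1, 2 and 9, and Mfsd2a and Chka at -0.42, which became -0.58.

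Some marker genes of the liver's cell types also differed between diets, and their part in the member differences was not tested. Among all genes 18.9% were called lower on fenofibrate and 7.00% on fish oil. On fenofibrate 6 of 9 tested hepatocyte markers (Cps1, -0.45 and Hnf4a, -0.42) and 5 of 8 stellate cell markers (Rgs5, -0.57) were called lower. So were 2 of 10 Kupffer cell markers (Clec4f, -0.43). Of 10 sinusoidal endothelial markers, 3 were lower (Stab2, -0.29) and 1 higher. The higher one was Lyve1, with a mean of 6.82 in controls and 7.6 on fenofibrate. The Kupffer count was near the share of all genes, and its second marker, Vsig4 (-0.25), was no longer called with the neighbour block (limma adjusted p = 0.0773), without control replicates 1, 2 and 9 (limma adjusted p = 0.0971) and in 5 of 33 fits that each left out 1 array. On fish oil 3 hepatocyte markers (Apoa1, -0.14) and 2 sinusoidal endothelial markers (Clec4g, -0.24) were called lower. The second of these endothelial markers, Stab2, lost its call with the neighbour block (limma adjusted p = 0.117) and in 20 of the 33 fits without 1 array, and the hepatocyte marker Cps1 with the block (limma adjusted p = 0.0691) and in 7 of them. The log2 of the summed endothelial markers was 12.2 to 12.36 in controls, 11.97 to 12.2 on fenofibrate and 11.98 to 12.18 on fish oil. For stellate cells it was 12.85 to 13.14, 12.59 to 12.83 and 12.86 to 13.12, and for Kupffer cells 13.09 to 13.79, 12.53 to 13.58 and 12.91 to 13.78, in the same order. Bile duct markers Krt19, Krt7, Epcam, Cftr and Sctr stayed below 4 on every array, as did Adipoq, Lep and Retn of adipocytes, Hba-a1 of red blood cells, and Cd3e, Cd3g, Ms4a1 and Cd79a of lymphocytes. The 1 tested bile duct marker was not called. The 1 tested adipocyte marker, Fabp4, was higher on fenofibrate by 1.28 ± 0.3 (SE), and the 1 tested lymphocyte marker, Ighm, by 0.67 ± 0.25 (SE). The call for Ighm was lost with the neighbour block (limma adjusted p = 0.0678), without control replicates 1, 2 and 9 (limma adjusted p = 0.125) and in 7 of the 33 fits without 1 array. Of 2 tested blood cell markers, Alas2 differed by -1.04 on fenofibrate and Bpgm by 0.4; Bpgm was higher on fish oil by 0.28, a call lost in 18 of the 33 fits without 1 array.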

How the data were processed

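Liver RNA of 33 mice was measured on 1 array each. The deposited table holds log2 values per probe set, computed by the authors using GCRMA (version 2.24.1 in the submitters' processing notes); other settings are not given in the sources used here. GCRMA subtracts a sequence-based background and equalises array distributions, which can compress dim signals and stretch changes that cross the background. Arrays have no sequencing depth, and their number limits the precision.

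Of 45101 probe sets, 64 controls, 932 with several genes and 9160 without a name in the annotation used here were left out of gene tests, and symbols were updated by gene ID with RefSeq names (GRCm38.p6). Probe sets with log2 of 4 or more on 10 or more of the 33 arrays were kept, and the brightest stood for its gene (9005 genes). Groups were compared in 1 model over the 3 diets with limma 3.58.1 (statmod 1.5.0, R 4.3.3; two-sided moderated tests from lmFit and eBayes), and p-values were adjusted over all genes by Benjamini-Hochberg; a gene was called at an adjusted p under 0.05, and intervals are at 95%. P-values rest on the spread between mice, pooled over the 3 diets, with the mice taken as independent. A spread between cages is not modelled. The script was tested on simulated data.

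The members and lists were chosen with earlier results of these data known. All 10 members are named, with up to 4 called genes per pathway list and 2 per marker list, by adjusted p, and the 5 genes most correlated with each of 5 members. Alternatives changed the filter, scaling, probe set, variance model, arrays fitted, weights and blocks, and left out each array in turn; 2 were added after the data were seen, leaving out fish oil replicates 1 and 2 and array number as a linear term.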

Additional observations from a re-analysis of the deposited data

Results flagged for a closer look

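In 2 members a single control array stood far from its group, by the gap to the nearest array as a share of the group's range (Dixon's criterion at the 95% level). Such a gap arises by chance in about 5% of groups, and all 9 genes were examined in the control group, the only one of at most 10 arrays. Chka read 7.91 in control replicate 1, with the next control at 6.31 and a gap of 0.54 of the range. Chpt1 read 11.55 in control replicate 9, with the next control at 11.1 and a gap of 0.62 of the range. Without control replicates 1, 2 and 9 the differences of Chpt1 were still called on both diets, and those of Chka were not.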

How the results depend on the processing

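Under 13 alternative settings and 33 fits that each left out 1 array, none of the 16 called member differences changed sign. The number of members called ranged over the settings from 5 to 7 for fenofibrate against control, stayed at 4 for fish oil against control, and ranged from 5 to 7 for fenofibrate against fish oil. Leaving out 1 array gave 5 to 6, 4 and 7. Leaving out 1 array gave 3495 to 3794, 1099 to 1554 and 3319 to 3620 genes called among all, against 3676, 1308 and 3507. Pairs of neighbouring array numbers as a random block (consensus correlation 0.23) lowered the fish oil count from 1308 to 845 genes, with the same 4 members counted. With the replicate number as a block, 5, 4 and 7 members were called, with 39.7%, 14.6% and 38.5% of all genes; the block changed no member's call. The replicate numbers do not pair the mice in the labels, and same-numbered arrays of different diets correlated at -0.21 to 0.35, over 0.1 in 12 of 31 pairs. Other changed calls were those of Mfsd2a, Pcyt2 and Etnk1 on fenofibrate, and of Etnk1 and Chpt1 between the diets, given with their values in the text; Etnk1 on fenofibrate also passed with averaged probe sets (0.27, limma adjusted p = 0.0448), with the most variable probe set (0.47, 0.0413) and with array weights (0.23, 0.00556), and Etnk1 between the diets was also lost with the most variable probe set (0.25, 0.3). The cause was not tested. Values near the filter, as for Chka, Pgs1, Slc44a3, Lpcat1 and the lowest Mfsd2a arrays, are the least certain.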
